A study of Mus musculus with 9 samples.

Results

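The genes described here are 9 members of the hedgehog signalling pathway: Shh, Ptch1, Hhip, Boc, Cdon, Smo, Gli1, Gli2 and Gli3. They were taken by name from the array's annotation, as every feature whose platform gene symbol is among these, which gave 17 features of 62976 and 9 genes of 24306. All 17 features had a value on each of the 9 arrays.

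Hedgehog ligands are secreted proteins, and in the developing lung SHH is made by the epithelium and received by the mesenchyme around it. Without ligand the receptor PTCH1 keeps the membrane protein SMO inactive. With ligand bound, helped by the co-receptors BOC and CDON, SMO is released and the GLI transcription factors switch target genes on. Ptch1, Gli1 and Hhip are themselves among these targets, and PTCH1 and HHIP both bind the ligand and limit its reach.

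RNA came from lung cells of mouse fetuses, sorted at E18.5 (days of embryonic development) and hybridised in 1 colour (Cy3) after amplification. The SMC group was sorted as Acta2-high and PDGFRA-low and labelled as smooth muscle of airways and vessels together. The MYF group was PDGFRA-high and Acta2-low and labelled as alveolar myofibroblast progenitors, whose descendants make the elastic fibres of alveolar walls. The INM group was low for both and labelled as intermediate, undifferentiated progenitors. Each group had 3 arrays from 3 mice. All cells, in every group, were RFP-positive and came from litters whose mothers had received tamoxifen (0.1 mg per g body weight) at E15.5. The gene that drives the recombinase and the RFP reporter allele are not given in the sources used here. The cells were not cultured.

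Values are log2 signals, so a difference of 1 is a doubling, and the number of arrays limits their precision. SMC replicate 1 differed from the rest: across features it correlated with the other 8 arrays at 0.425 to 0.451, whereas those 8 correlated with each other at 0.864 to 0.97. The tests of each gene's brightest feature and the counts of each pathway list are therefore given both on all 9 arrays and on the 8 that remain when SMC replicate 1 is left out. The MYF against INM difference itself is the same in both, since no SMC array enters it, and its error changes because the groups share 1 estimate of the spread. The genes of the sort followed the labels for Pdgfra, at 6.93 and 6.89 in SMC replicates 2 and 3 (1.98 in SMC replicate 1), 13.04 to 13.87 in MYF and 8.30 to 8.66 in INM. Acta2 was high everywhere, at 14.77, 15.88 and 14.79 in SMC, 13.87 to 14.06 in MYF and 13.43 to 13.84 in INM. Every SMC array was above every array of the other groups. Without SMC replicate 1, SMC minus MYF was 1.37 ± 0.38 and SMC minus INM 1.76 ± 0.38. Neither passed limma's test (adjusted p = 0.0647 and 0.119, and 0.308 and 0.554 with all 9).

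MYF cells had more RNA of the receptor Ptch1, the ligand-binding inhibitor Hhip and the factors Gli1 and Gli3 than INM cells, and less RNA of the ligand Shh, when SMC replicate 1 was left out (limma, adjusted p under 0.05). That is 5 of 9 members, where 10.7% of 24280 genes were called in either direction with 4.35% as higher and 6.35% as lower in MYF. With all 9 arrays 1 member, Shh, was called, as lower, against 1.1% of all genes and 0.927% as lower. By the values themselves, 7 of the 9 members were higher on every MYF array than on any INM array, which held for 18.6% of all genes. Shh was lower on every MYF array, as were 16.5% of all genes, and Cdon overlapped. The median difference over the 9 members was 1.51, against 0.05 over all genes.

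**Figure D1:**
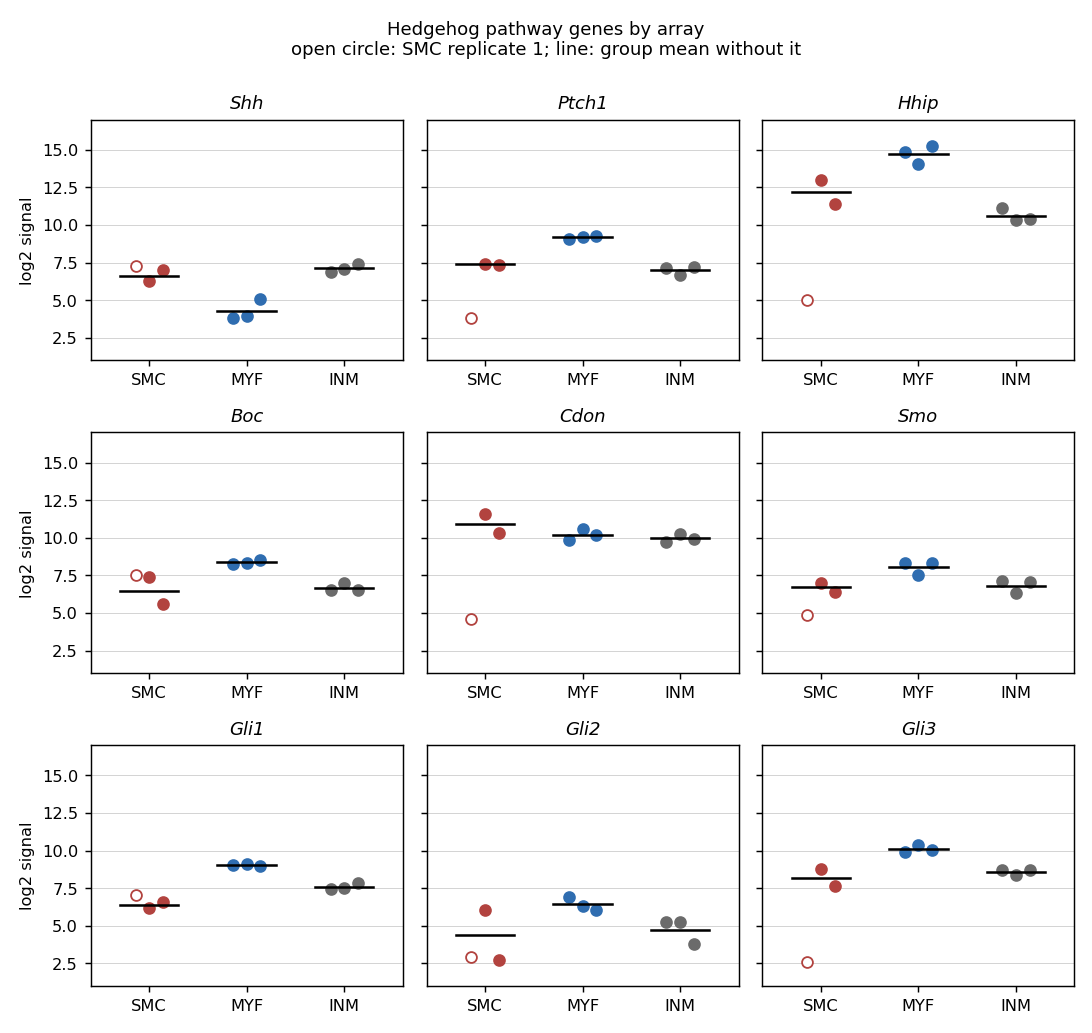
The log2 signal of the brightest feature of each of the 9 genes (vertical axis) on each array of SMC, MYF and INM, with a line at the group mean without SMC replicate 1, which is drawn open. The MYF points lie above all INM points for 7 genes, below them for Shh and among them for Cdon.

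Shh, the ligand, had signals of 7.28, 6.28 and 6.98 in SMC, 3.83, 3.96 and 5.08 in MYF, and 6.90, 7.04 and 7.40 in INM. The 3 MYF arrays were the lowest of the 9, and SMC and INM overlapped. Shh fell in MYF relative to INM by 2.82 ± 0.40 on the log2 scale (SE; adjusted p = 0.00456 without SMC replicate 1 and 0.0457 with all 9 arrays). The MYF signals lie below the arrays' mean of 5.89, and the background level of the arrays is not given in the sources used here, so no fold is given. SMC was above MYF by 2.34 ± 0.45 without SMC replicate 1 (adjusted p = 0.0212) and by 2.55 ± 0.52 with all 9 (adjusted p = 0.0742). The SMC and INM difference did not pass the test, at -0.49 ± 0.45 with a 95% interval of -1.53 to 0.55 (adjusted p = 0.703 without SMC replicate 1, 0.785 with all 9).

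Epithelial genes differed alongside Shh. Of 15 epithelial markers, all 15 were lower in MYF than in INM and all 15 higher in SMC than in MYF without SMC replicate 1. With all 9 arrays the counts were 7 and 6. Over all genes the shares were 6.35% and 4.66% without SMC replicate 1, and 0.927% and 0.379% with all 9 arrays. The mean log2 signal of the 14 markers with no empty cell was 10, 10.16 and 11.64 in SMC, 6.28 to 6.68 in MYF and 11.91 to 12.35 in INM, so MYF lay apart from both other groups. The marker with the lowest MYF mean was Foxj1, a regulator of motile cilia, at 3.17 in MYF and 11.38 in INM, on arrays whose lowest value is 1.65. Epcam averaged 5.20 in MYF and 10.07 in INM. The part of epithelial RNA in the Shh difference was not tested, and in sorted bulk RNA fewer cells of a type and less RNA per cell cannot be told apart.

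**Figure D2:**
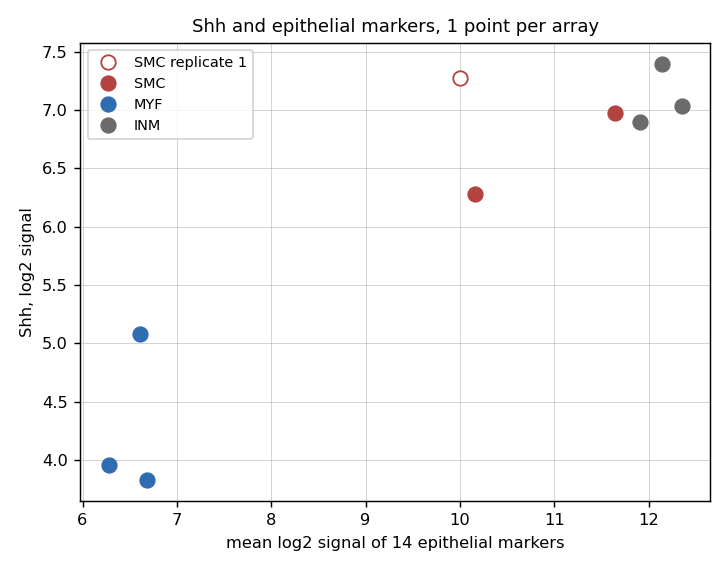
Shh log2 signal (vertical axis) against the mean log2 signal of 14 epithelial markers (horizontal axis), with 1 point for each of the 9 arrays. The 3 MYF arrays sit at 6.28 to 6.68 for the markers and 3.83 to 5.08 for Shh, and the other 6 arrays are higher on both axes.

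Ptch1, the hedgehog receptor and a target of the pathway, had signals of 3.80, 7.40 and 7.34 in SMC, 9.08, 9.23 and 9.28 in MYF, and 7.12, 6.64 and 7.20 in INM. MYF was the highest group with no overlap, and its arrays lay within an SD of 0.10. Ptch1 was higher in MYF than in INM by 2.21 ± 0.26, a 4.63-fold difference (adjusted p = 0.00211 without SMC replicate 1 and 0.442 with all 9, where the SE was 0.90). In SMC it was lower than in MYF, at -1.83 ± 0.29 (adjusted p = 0.0107 without SMC replicate 1), and with all 9 arrays the difference was -3.02 ± 0.90 (adjusted p = 0.188). SMC replicates 2 and 3 were above all INM arrays, by 0.38 ± 0.29, a difference that did not pass the test (adjusted p = 0.643). With SMC replicate 1 kept that difference was -0.81 ± 0.90 (adjusted p = 0.639).

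Hhip, which encodes a membrane protein that binds hedgehog ligands and blocks them, showed the widest spread between groups among the 9 members. Its signals were 5.02, 12.97 and 11.38 in SMC, 14.83, 14.07 and 15.28 in MYF, and 11.10, 10.36 and 10.40 in INM. The order without SMC replicate 1 was MYF, SMC, INM with no overlap, while SMC replicate 1 lay below every INM array. Hhip was higher in MYF than in INM by 4.11 ± 0.50, a 17.3-fold difference (adjusted p = 0.00227 without SMC replicate 1, 0.459 with all 9). SMC was below MYF, at -2.56 ± 0.56 (adjusted p = 0.0322) and -4.94 ± 1.71 with all 9 (adjusted p = 0.254). SMC replicates 2 and 3 averaged 1.55 ± 0.56 above INM, which did not pass (adjusted p = 0.318), and with SMC replicate 1 kept the difference was -0.83 ± 1.71 (adjusted p = 0.797).

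Ptch1, Hhip and Gli3 were higher together in MYF, so the 250 bases before their RefSeq start sites are printed, with those of Gli2, the 1 member window in which the searched motif occurs. RefSeq (GRCm38.p6) gave such a window for 6 of the 9 members. The binding motif of GLI factors, GACCACCCA, and its 7-base core ACCACCC were searched on both strands; the core lies within the longer motif. The full motif was in none of the 6 windows and in 0.225% of 32851 windows of that length, and the core was in 1 of the 6 and in 3.92% of all. Capitals mark the core, here on the strand opposite to the gene, so it reads GGGTGGT, and its outermost base lies 205 bases before the start.
Ptch1, chr13:63565736-63565985, minus strand: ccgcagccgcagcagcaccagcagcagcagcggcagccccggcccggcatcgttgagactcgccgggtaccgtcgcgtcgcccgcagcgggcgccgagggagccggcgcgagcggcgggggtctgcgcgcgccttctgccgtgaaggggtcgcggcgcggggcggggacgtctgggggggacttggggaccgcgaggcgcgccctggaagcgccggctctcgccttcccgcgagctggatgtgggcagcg
Hhip, chr8:80058009-80058258, minus strand: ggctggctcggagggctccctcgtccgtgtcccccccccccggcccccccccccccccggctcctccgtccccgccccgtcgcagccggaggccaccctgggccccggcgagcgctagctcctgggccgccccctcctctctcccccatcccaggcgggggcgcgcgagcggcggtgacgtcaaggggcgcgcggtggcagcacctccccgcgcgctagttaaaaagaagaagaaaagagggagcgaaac
Gli3, chr13:15463473-15463722, plus strand: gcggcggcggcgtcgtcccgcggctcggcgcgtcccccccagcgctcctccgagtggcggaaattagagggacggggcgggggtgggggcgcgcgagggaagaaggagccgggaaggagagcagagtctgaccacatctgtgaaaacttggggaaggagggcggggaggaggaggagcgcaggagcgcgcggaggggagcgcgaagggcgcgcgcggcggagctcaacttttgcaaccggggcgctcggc
Gli2, chr1:119053620-119053869, minus strand: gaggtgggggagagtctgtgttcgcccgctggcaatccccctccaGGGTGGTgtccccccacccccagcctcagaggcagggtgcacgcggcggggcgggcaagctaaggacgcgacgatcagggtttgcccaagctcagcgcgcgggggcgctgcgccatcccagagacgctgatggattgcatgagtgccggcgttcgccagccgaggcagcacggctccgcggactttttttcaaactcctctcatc
The Ptch1, Hhip and Gli3 windows held 41, 28 and 34 CG pairs, where the median over all windows was 6, and their GC contents were 78.4%, 76% and 72.8% against a median of 52.4%. The windows of Gli2, Smo and Cdon, members not called, held 22, 15 and 1 CG pairs, with GC contents of 67.2%, 68.4% and 42.8%. A missing match says only that these letters are not in this window.

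Boc and Cdon encode related cell-surface proteins that bind hedgehog ligands beside PTCH1, and their values differed in pattern. Boc had signals of 7.55, 7.40 and 5.58 in SMC, 8.28, 8.35 and 8.55 in MYF, and 6.51, 7.00 and 6.51 in INM. Every MYF array was above every other array, and SMC and INM overlapped. The MYF minus INM difference was 1.72 ± 0.45, 3.29-fold, just outside the threshold (adjusted p = 0.050014 without SMC replicate 1, 0.301 with all 9). The SMC minus MYF difference was -1.90 ± 0.51 (adjusted p = 0.0599), and -1.55 ± 0.59 with all 9 (adjusted p = 0.294). A dimmer Boc feature had 2.74, 6.57 and 6.26 in SMC, 8.35, 7.88 and 8.53 in MYF, and 5.07, 4.12 and 5.66 in INM. On that feature Boc was higher in MYF than in INM by 3.30 ± 0.42 and passed when every feature was its own unit (adjusted p = 0.00458 without SMC replicate 1), but not with all 9 arrays (3.30 ± 0.97, adjusted p = 0.245).

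Cdon had signals of 4.63, 11.56 and 10.32 in SMC, 9.85, 10.58 and 10.17 in MYF, and 9.69, 10.27 and 9.93 in INM. MYF and INM overlapped, SMC replicate 2 was above both, and SMC replicate 3 was above INM and within the MYF range. The MYF minus INM difference was 0.23 ± 0.39 with a 95% interval of -0.67 to 1.14 (adjusted p = 0.785 without SMC replicate 1, 1 with all 9). SMC minus INM was 0.98 ± 0.44 (adjusted p = 0.415) and SMC minus MYF was 0.74 ± 0.44 (adjusted p = 0.328), and with SMC replicate 1 kept both turned negative, at -1.13 ± 1.50 and -1.36 ± 1.50 (adjusted p = 0.69 and 0.63). The other features of Cdon disagreed among themselves. On 1 of them the signals were 2.87, 12.35 and 10.69 in SMC, 7.10, 10.59 and 7.42 in MYF, and 9.45, 10.70 and 9.98 in INM, and the MYF minus INM difference was -1.67 ± 0.92. On the other it was 0.10 ± 0.39, and neither passed.

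Smo, the membrane protein that PTCH1 restrains, had signals of 4.85, 6.98 and 6.41 in SMC, 8.35, 7.55 and 8.34 in MYF, and 7.10, 6.30 and 7.05 in INM. Every MYF array was above every array of the other groups. The MYF minus INM difference was 1.26 ± 0.37 and the SMC minus MYF difference -1.39 ± 0.41, and neither passed the test (adjusted p = 0.0682 and 0.0792 without SMC replicate 1, 0.639 and 0.213 with all 9). SMC minus INM was -0.12 ± 0.41 with a 95% interval of -1.07 to 0.82 (adjusted p = 0.932), and -0.74 ± 0.63 with all 9 (adjusted p = 0.573).

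Gli1, the GLI factor that acts as an activator and is itself a pathway target, had signals of 7.04, 6.17 and 6.55 in SMC, 9.02, 9.11 and 9.00 in MYF, and 7.46, 7.54 and 7.82 in INM. The 3 groups did not overlap, with MYF highest, INM next and SMC lowest, and SMC replicate 1 kept to this order. Gli1 fell in SMC relative to MYF, at -2.69 ± 0.29 or 0.155 of the MYF level (adjusted p = 0.00268 without SMC replicate 1), and with all 9 arrays at -2.46 ± 0.43 (adjusted p = 0.0492). It was higher in MYF than in INM by 1.44 ± 0.26, 2.72-fold (adjusted p = 0.0116 without SMC replicate 1, 0.208 with all 9). SMC was at -1.24 ± 0.29 from INM, which did not pass (adjusted p = 0.146, and 0.554 with all 9, where the difference was -1.02 ± 0.43). A dimmer Gli1 feature gave 8.19, 3.88 and 6.72 in SMC, 5.53, 4.94 and 5.56 in MYF, and 4.82, 3.92 and 3.73 in INM. There MYF was again above INM on every array, at 1.19 ± 0.68 (adjusted p = 0.365), but SMC minus MYF was -0.04 ± 0.76 (adjusted p = 0.981) and turned to 0.92 with SMC replicate 1 kept (adjusted p = 0.627). The fall of Gli1 in SMC therefore rests on the brighter feature.

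Gli3, the GLI factor best known as a repressor in the absence of ligand, had signals of 2.56, 8.76 and 7.63 in SMC, 9.88, 10.38 and 10.06 in MYF, and 8.70, 8.37 and 8.71 in INM. MYF was above every other array, and SMC replicate 2 was above every INM array while SMC replicate 3 was below them. Gli3 was higher in MYF than in INM by 1.51 ± 0.35, 2.85-fold (adjusted p = 0.0324 without SMC replicate 1, 1 with all 9). SMC was below MYF, at -1.91 ± 0.39 (adjusted p = 0.0258), and at -3.79 ± 1.35 with all 9 (adjusted p = 0.265). SMC minus INM was -0.40 ± 0.39 (adjusted p = 0.721), and -2.28 ± 1.35 with all 9 (adjusted p = 0.554).

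Gli2, which in mouse is the main activator of the early response, had signals of 2.89, 6.06 and 2.75 in SMC, 6.93, 6.30 and 6.04 in MYF, and 5.25, 5.24 and 3.76 in INM. MYF was above INM on every array, and SMC replicate 2 reached into the MYF range. The INM signals and those of SMC replicates 1 and 3 lie below the arrays' mean of 5.89. No difference passed: MYF minus INM was 1.68 ± 0.81 (95% interval -0.20 to 3.55, adjusted p = 0.255) and SMC minus MYF was -2.02 ± 0.91 (adjusted p = 0.206), with 0.717 and 0.27 on all 9 arrays. SMC minus INM was -0.34 ± 0.91 (adjusted p = 0.913), and -0.85 ± 0.91 with all 9 (adjusted p = 0.629).

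Relative to MYF cells, Ptch1, Hhip, Gli1 and Gli3 fell and Shh rose in SMC cells without SMC replicate 1, which is 5 of 9 members where 8.19% of 24284 genes were called. As lower in SMC 3.54% of genes were called, and as higher 4.66%. With all 9 arrays Gli1 alone of the members was called, as lower, where 0.671% of genes were called and 0.292% as lower. On every array of SMC, SMC replicate 1 included, 6 of the 9 members were below every MYF array, which held for 12.1% of all genes, and Shh was above them, which held for 9.27%. Without SMC replicate 1 the counts were again 6 and 1, against 22.3% and 17.9% of all genes. The median over the members was -1.90 without SMC replicate 1 (all genes, -0.05) and -2.46 with it (all genes, 0.10). This comparison and MYF against INM share the MYF arrays, so their values are not independent of each other.

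Between SMC and INM no member passed limma's test, on 9 arrays or without SMC replicate 1. Over all genes 0% were called on 9 arrays and 0.247% without SMC replicate 1 (0.0906% as higher and 0.156% as lower in SMC). At an unadjusted p under 0.05 limma gave Gli1 alone of the 9 members on all 9 arrays, where 7.97% of all genes were under that threshold, and Gli1 and Hhip without SMC replicate 1, where 12.7% were. Gli1 was lower on every SMC array than on any INM array, as were 8.47% of all genes on 9 arrays and 15.3% without SMC replicate 1, and no member was higher on every SMC array, where 6.8% of genes were. Ptch1, Hhip and Cdon were higher in SMC replicates 2 and 3 than on any INM array, which held for 12.9% of genes. The median difference of the members was -0.18 without SMC replicate 1 (all genes, -0.03) and -0.83 with it (all genes, 0.03).

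**Figure D3:**
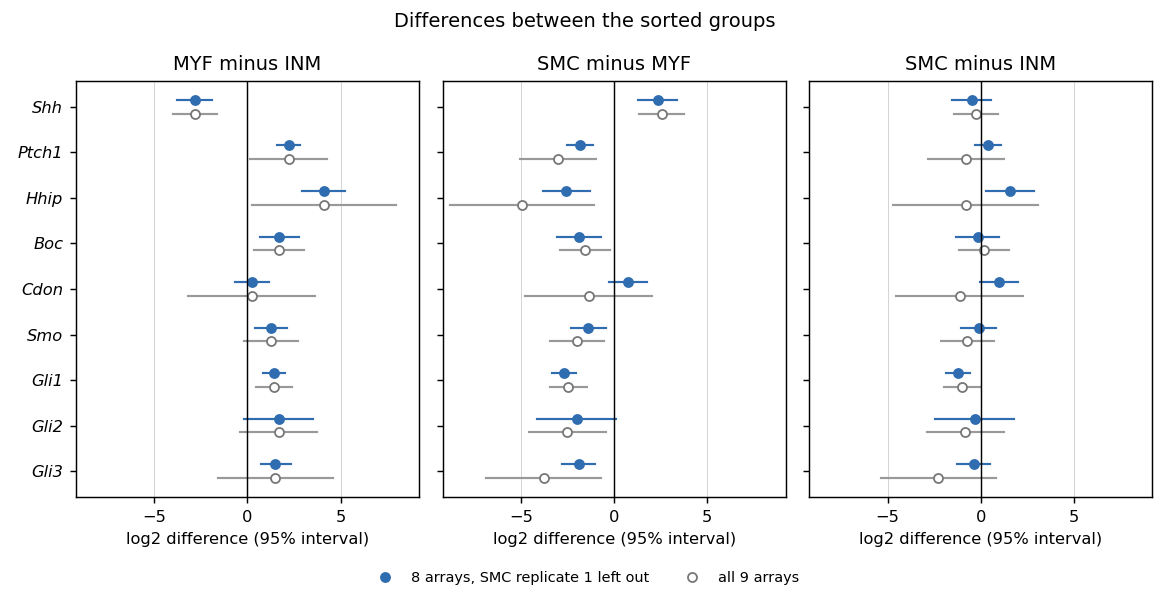
The log2 difference (horizontal axes) with its 95% interval for each of the 9 genes in MYF minus INM, SMC minus MYF and SMC minus INM, filled without SMC replicate 1 and open for all 9 arrays. Hhip is farthest from 0 in MYF minus INM at 4.11, Shh is at -2.82, and the open intervals are wider than the filled ones for every gene but Gli2, whose intervals in both comparisons with SMC are slightly narrower on all 9 arrays.

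An F-test over the 3 groups called Shh, Ptch1, Hhip, Gli1 and Gli3 without SMC replicate 1 (adjusted p = 0.00867, 0.00417, 0.00536, 0.00314 and 0.0293), where 10.2% of genes were called. With all 9 arrays it called no member, where 0.836% of genes were called. At an unadjusted p under 0.05 limma's F-test then gave 6 of the 9, Shh, Ptch1, Hhip, Boc, Smo and Gli1, where 12.5% of all genes were under that threshold.

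Of the 9 members 6 had several features, and for most of these the features gave the same direction in MYF against INM. The 3 Ptch1 features were at 2.21, 2.78 and 2.52, and the first pair passed over all features without SMC replicate 1 (adjusted p = 0.00359 and 0.0308), while the last did not (adjusted p = 0.0538). With all 9 arrays none of the 3 passed (adjusted p = 0.515, 0.604 and 0.344). The Hhip features were at 4.11 and 4.19 (adjusted p = 0.00375 and 0.0041 without SMC replicate 1, and 0.532 and 0.433 with all 9). Those of Smo were at 1.26 and 0.96, and neither passed. In SMC replicate 1 the 3 Ptch1 features read 3.80, 10.81 and 2.82, that is, the lowest, the highest and the lowest value of the 9 arrays for each feature. The difference of the second Ptch1 feature in SMC minus MYF therefore moved to -0.36 on all 9 arrays, against -1.94 without SMC replicate 1.

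**Figure D4:**
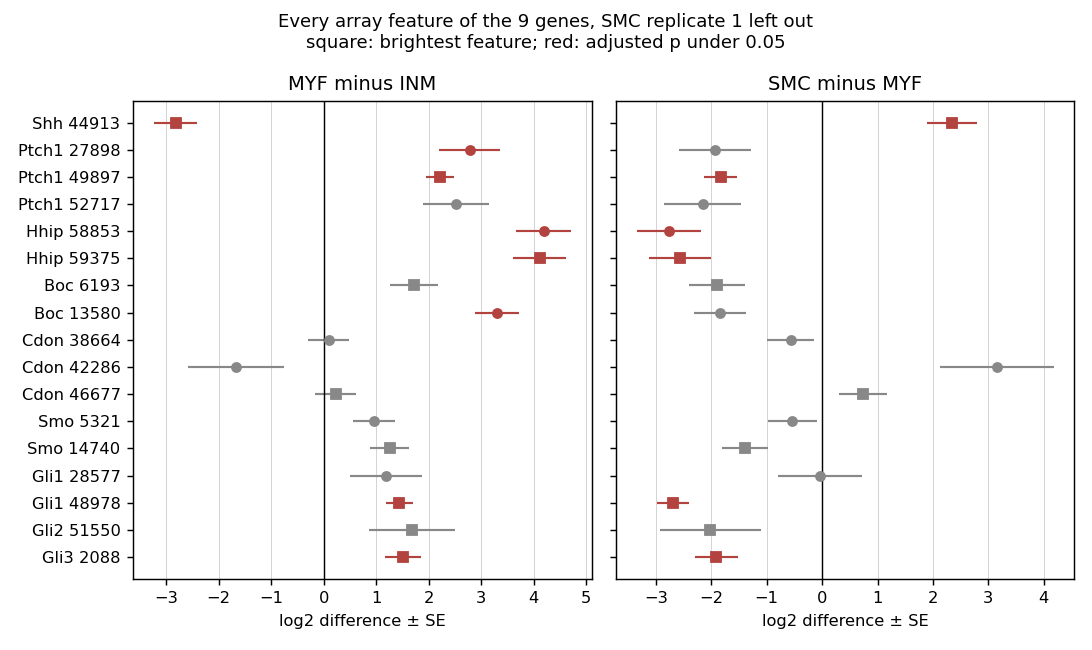
The log2 difference ± SE (horizontal axes) of each of the 17 features of the 9 genes in MYF minus INM and SMC minus MYF, without SMC replicate 1; squares are the brightest feature of a gene and red marks an adjusted p under 0.05 over all features. The features of Ptch1 and of Hhip lie close together, and those of Cdon spread from -1.67 to 0.23 in MYF minus INM.

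Other cell types' markers differed beside the members in both comparisons with MYF. The mean over 8 endothelial markers was 4.72 to 9.47 in SMC, 5.11 to 5.85 in MYF and 9.90 to 10.06 in INM, and over 9 heart muscle markers 6.69 to 13.40 in SMC, 5.41 to 6.49 in MYF and 9.10 to 9.52 in INM. SMC replicate 1 was the lowest SMC array in both. For 8 leukocyte markers it was 8.78 to 10.27 in SMC, 6.64 to 7.12 in MYF and 8.31 to 8.58 in INM. Without SMC replicate 1, MYF was lower than INM in 8 of 8 endothelial, 5 of 9 heart muscle and 2 of 8 leukocyte markers. In MYF 1 leukocyte marker was higher. SMC was higher than MYF in 8 endothelial, 8 heart muscle and 5 leukocyte markers. Over all genes 6.35% were called lower and 4.35% higher in MYF than in INM, and 4.66% higher in SMC than in MYF. With all 9 arrays MYF was lower than INM in 2, 0 and 1 of these markers, against 0.927% of all genes. SMC was then higher than MYF in 1, 2 and 1, against 0.379%. Markers of alveolar myofibroblasts, 6 genes that include Pdgfra, a gene of the sort, averaged 6.40 to 10.50 in SMC, 12.52 to 12.90 in MYF and 10.48 to 10.57 in INM. Fibroblast markers averaged 6.40 to 8.82 in SMC, 10.31 to 11.10 in MYF and 10.35 to 10.78 in INM. Smooth muscle markers averaged 9.72, 12.94 and 11.67 in SMC, 10.14 to 10.66 in MYF and 9.72 to 10.79 in INM. SMC replicates 2 and 3 were thus above every MYF and INM array, and SMC replicate 1 was not. That array was also the lowest of SMC for the alveolar myofibroblast and fibroblast markers. Without it 3 of 8 smooth muscle markers were called higher in SMC than in MYF, against 4.66% of all genes. With all 9 arrays 0 were, against 0.379%. Between SMC and INM 0 of 8 passed on either set, where 0.247% of all genes passed without SMC replicate 1 and 0% on all 9 arrays. The part of these other cells' RNA in the members' differences was not tested.

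Of 9 measured genes listed as responding to hedgehog signalling, 5 were higher and 1 lower in MYF than in INM without SMC replicate 1. Over all genes 4.35% were called higher and 6.35% lower, and 0 of the 9 passed on all 9 arrays. The list does not separate genes that the pathway raises from genes that it lowers. The median difference of the 9 was 1.74, against 0.05 over all genes. Foxf2, a forkhead factor of gut and lung mesenchyme, had 6.44, 9.02 and 8.19 in SMC, 13.59, 11.90 and 13.90 in MYF, and 9.41, 9.00 and 9.21 in INM. It was higher in MYF than in INM by 3.92 ± 0.53 (adjusted p = 0.00355 without SMC replicate 1, 0.0546 with all 9). It fell in SMC relative to MYF, at -4.53 ± 0.59 (adjusted p = 0.0052) and with all 9 arrays at -5.25 ± 0.77 (adjusted p = 0.0309). Foxl1, a forkhead factor of the same family, was higher in MYF than in INM by 3.00 ± 0.76 (adjusted p = 0.0431, and 0.196 with all 9). Its INM mean of 5.19 lies below the arrays' mean of 5.89. Bcl2, which protects cells from apoptosis, was at 12.07 to 12.16 in MYF and 9.84 to 9.91 in INM, higher by 2.24 ± 0.34 (adjusted p = 0.00565, and 0.127 with all 9). Foxf1, needed for lung vessels and mesenchyme, was higher by 1.96 ± 0.41 (adjusted p = 0.0223, and 0.305 with all 9) and Gas1 by 1.74 ± 0.37 (adjusted p = 0.0234, and 0.706 with all 9).

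The response gene called lower in MYF was Ccnd1, the cyclin of early cell cycle entry. It had 4.81, 7.64 and 5.09 in MYF and 9.63, 9.28 and 9.21 in INM. Every MYF array was below every INM array, and the difference was -3.53 ± 0.69 (adjusted p = 0.0172 without SMC replicate 1, 0.135 with all 9). The 3 response genes not called without SMC replicate 1 were Ccnd2 at -1.62 ± 0.69, Mycn at 0.24 ± 0.52 and Bmp4 at 1.47 ± 0.41 (adjusted p = 0.192, 0.839 and 0.0606). In SMC against MYF, 4 of the 9 response genes fell and 0 rose without SMC replicate 1, where 3.54% of all genes were called lower and 4.66% higher, with a median of -2.24 against -0.05 over all genes. These were Foxf2, Bcl2 (-2.61 ± 0.38, adjusted p = 0.00729), Bmp4, a growth factor of the distal lung (-2.49 ± 0.46, adjusted p = 0.0182), and Foxf1 (-2.24 ± 0.46, adjusted p = 0.0256). With all 9 arrays Foxf2 alone passed and the median was -2.09 against 0.10 over all genes. In SMC against INM 0 of the 9 passed on either set of arrays, and Bmp4 and Ccnd1 were at -1.02 ± 0.46 and -0.79 ± 0.77. Of all genes 0.247% were called in that comparison without SMC replicate 1 and 0% on all 9 arrays.

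**Figure D5:**
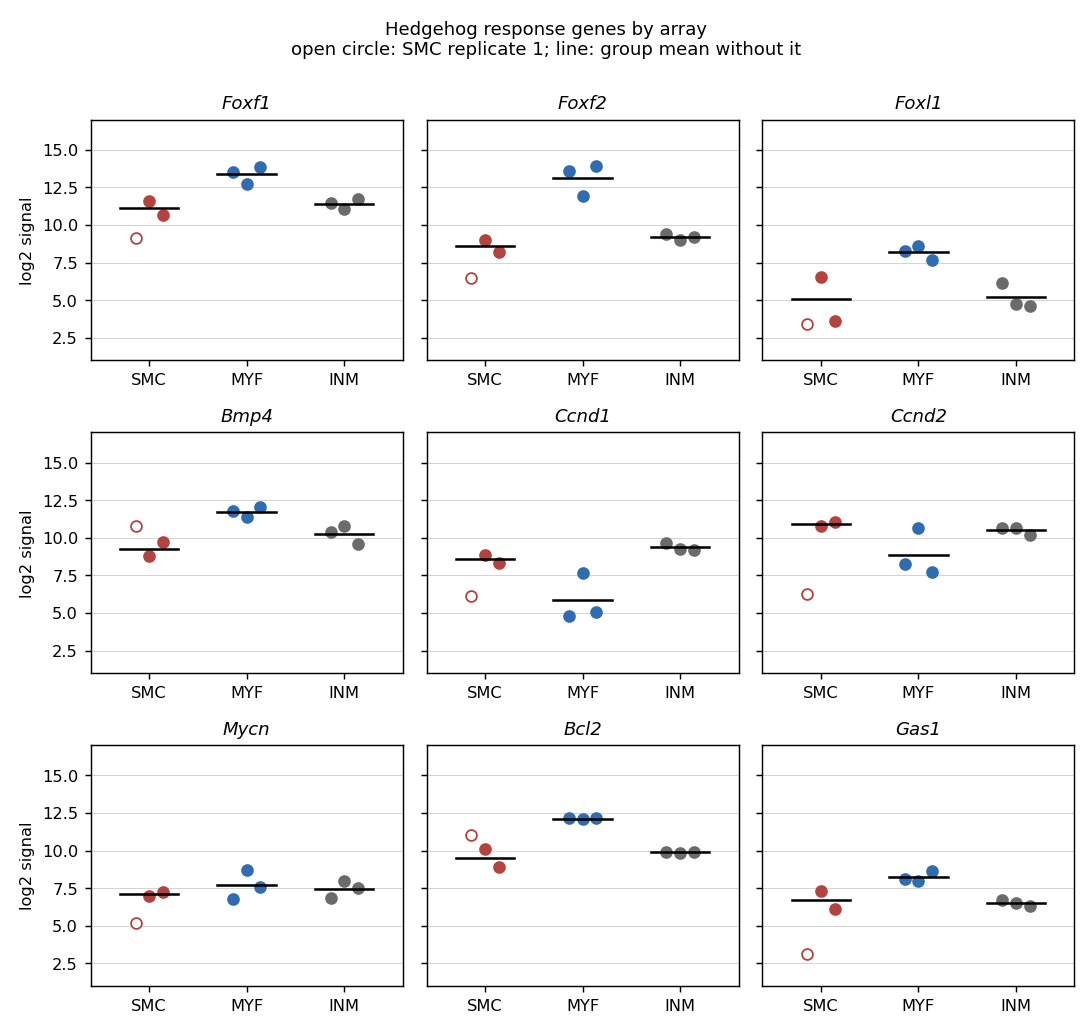
The log2 signal (vertical axis) of 9 hedgehog response genes on each array of SMC, MYF and INM, with a line at the group mean without SMC replicate 1, drawn open. Foxf2 stands at 11.90 to 13.90 in MYF and at or below 9.41 on every other array, while the Ccnd1 and Ccnd2 means are lowest in MYF.

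Of 21 measured genes for signal transduction inside the cell and for the cilium, 3 were higher and 0 lower in MYF than in INM without SMC replicate 1, where 4.35% of all genes were called higher and 6.35% lower. Their median was 0.32, against 0.05 over all genes, and 0 passed on all 9 arrays. Gpr161, a receptor of the cilium that keeps GLI factors in their repressor form, had 7.96, 7.28 and 6.08 in SMC, 9.00, 9.14 and 9.79 in MYF, and 6.60, 6.80 and 5.95 in INM, and was higher in MYF than in INM by 2.86 ± 0.42 (adjusted p = 0.005, and 0.0648 with all 9). Sufu, which holds GLI factors in the cytoplasm, was higher by 2.61 ± 0.60 (adjusted p = 0.0312, and 0.344 with all 9). Btrc, part of the ubiquitin ligase that starts GLI processing, was higher by 2.37 ± 0.47 (adjusted p = 0.0184, and 0.303 with all 9). Its INM signals, 5.18, 3.44 and 5.04, lie below the arrays' mean of 5.89. In SMC against MYF 1 of the 21 passed without SMC replicate 1, Gpr161 at -2.63 ± 0.47 (adjusted p = 0.0155), where 8.19% of all genes were called, and 0 with all 9. Against INM, SMC had 0 of 21 past the test on either set, where 0.247% of all genes passed without SMC replicate 1 and 0% on 9 arrays. Btrc was at 2.43 ± 0.53 (adjusted p = 0.124) and Evc2, a cilium gene, at 1.41 ± 0.63 (adjusted p = 0.413).

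Among other surface proteins of the pathway, 2 of 6 measured genes were higher and 1 lower in MYF than in INM without SMC replicate 1, against 4.35% and 6.35% of all genes. Gas1, a co-receptor counted above as a response gene too, and Gpc4, a glypican (1.06 ± 0.24, adjusted p = 0.0305, and 0.365 with all 9), were the higher pair. Lrp2, an endocytic receptor that epithelia also express, was at -2.43 ± 0.62 (adjusted p = 0.0445, and 0.371 with all 9). Its MYF signals, 5.19, 4.79 and 4.69, lie below the arrays' mean of 5.89. None of the 6 passed in SMC against MYF, where Gas1 and Gpc3 were at -1.53 ± 0.41 and -1.06 ± 0.44 (adjusted p = 0.0603 and 0.174). None passed in SMC against INM, where Lrp2 and Gpc3 were at -1.90 ± 0.69 and -0.92 ± 0.44 (adjusted p = 0.322 and 0.445). Over all genes 8.19% were called in SMC against MYF and 0.247% in SMC against INM without SMC replicate 1. On all 9 arrays none of the 6 passed in any of the 3 comparisons. Of all genes 1.1% (MYF minus INM), 0.671% (SMC minus MYF) and 0% (SMC minus INM) were then called.

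Of 8 genes for other ligands and for ligand release, 0 passed in MYF against INM. Over all genes 10.7% were called there without SMC replicate 1. Dhh, a ligand best known from testis and nerve sheaths, had 3.93, 5.67 and 9.54 in SMC, 3.03 to 3.96 in MYF and 5.76 to 7.43 in INM. Its MYF minus INM difference was -3.32 ± 0.92 (adjusted p = 0.0577), and it was higher in SMC than in MYF by 4.16 ± 1.03 (adjusted p = 0.0467). With SMC replicate 1 kept that difference was 2.93 ± 1.25 (adjusted p = 0.325). The MYF signals of Dhh lie below the arrays' mean of 5.89, and SMC replicates 2 and 3 stood far apart, at 5.67 and 9.54. Scube1, of a family that helps release hedgehog ligands, fell in SMC relative to MYF at -2.95 ± 0.59 (adjusted p = 0.0238, and 0.593 with all 9). In SMC against MYF 1 of the 8 was thus higher and 1 lower, where 4.66% of all genes were called higher and 3.54% lower. Scube3 stood at 1.66 ± 0.54 in MYF minus INM (adjusted p = 0.0982). Scube2, of the Scube1 family, was at -1.70 ± 0.36 in SMC against INM (adjusted p = 0.116). Disp2, a relative of the ligand exporter Disp1, was at -1.51 ± 0.94 there (adjusted p = 0.552). In that comparison 0 of the 8 passed, and 0.247% of all genes did without SMC replicate 1. On all 9 arrays 0 of the 8 passed in any comparison. Of all genes 1.1% (MYF minus INM), 0.671% (SMC minus MYF) and 0% (SMC minus INM) were then called.

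The genes whose profile was most like that of a called member were found by the root mean square difference of log2 signals over 8 arrays, SMC replicate 1 left out, after centring each gene on its mean, among 12522 genes. For Hhip these were Ntn4 (0.30), Spon2 (0.32) and Adamts8 (0.33), of which Adamts8 was also among the nearest over 9 arrays. For Gli1 they were Adamts10 (0.17), Mterf4 (0.18) and Errfi1 (0.22), with Adamts10 nearest over 9 arrays as well. For Ptch1 they were Nes (0.22), Chd9 (0.22) and Lsp1 (0.23), with Chd9 kept over 9 arrays. Gli3 was followed most closely by Coq10b (0.16), Fbn1, which encodes fibrillin of elastic fibres (0.19), and Cldn9 (0.23), and Shh by Cmbl (0.19), Mansc1 (0.22) and Sema7a (0.24), none of which was kept over 9 arrays. The members were not each other's nearest genes. The closest member to Ptch1 and to Gli1 was Gli3, at 0.46 and 0.54, which ranked 146 and 190 among the 12522 genes. For Hhip it was Ptch1, at 0.98 (rank 150), and for Gli3 it was Boc, at 0.34 (rank 58). The closest to Shh was Cdon, at 1.47 (rank 6147). The measure is not scaled by the size of a gene's differences.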

How the data were processed

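RNA of 9 sorted cell samples (3 SMC, 3 MYF, 3 INM) was measured on 1-colour arrays. The authors deposited 1 log2 signal per feature and array; limma was used to make the values, per the submitters' processing notes, with no version or role given. All columns have the same mean (5.89) and the same SD and were therefore taken to be quantile-normalized; the background correction and the rule for 1197 empty cells are not given in the sources used here. Platform symbols (43941 features) were brought to RefSeq's (1887 updated, 7 kept though not listed), and each gene was represented by its brightest feature on average over the 9 arrays.

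The tests used limma 3.58.1 (lmFit, then eBayes), run in R 4.3.3, with the data.table package (version 1.17.8) for reading; the model had 1 mean per group and no covariate, two-sided, with Benjamini-Hochberg adjustment over all genes tested and a threshold of 0.05. The code was tested on simulated data. The members, gene lists and tests were chosen with earlier results of these data known, including that SMC replicate 1 stands apart. In the text, all 9 members are named, and of each pathway list and contrast up to 4 genes past the test without SMC replicate 1 with the widest differences, or 2 where none passed; Acta2, Pdgfra and profile neighbours are named by rule too. Neighbours needed a brightest group mean of at least 6.01, the genes' median, and a symbol that is no clone or model name. Marker genes named beside Shh were chosen after their values were seen. So were Foxf1, Gas1, Ccnd2, Mycn and Bmp4 among the response genes in MYF against INM. Alternatives left out arrays, changed the representing feature, the scaling, the filter, the variance model and the array weights, and added a replicate block. Replicate numbers were not used as pairs.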

Additional observations from a re-analysis of the deposited data

How the results depend on the processing

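With SMC replicate 1 left out, the counts of genes called were 2598 (MYF minus INM), 1990 (SMC minus MYF), 60 (SMC minus INM) and 2478 (F-test), against 267, 163, 0 and 203 on 9 arrays, and members called were 5, 5, 0 and 5, against 1, 1, 0 and 0. Leaving out 1 of the 9 arrays at a time, these counts ran from 0 to 2598, 0 to 1990, 0 to 60 and 0 to 2478 for genes, and from 0 to 5, 0 to 5, 0 to 0 and 0 to 5 for members. Shh in MYF minus INM lost its 9-array call without any 1 of the MYF or INM arrays, and Gli1 in SMC minus MYF lost its call without SMC replicate 3 or any MYF or INM array. With SMC replicate 1 and 1 further array left out, genes called ran from 1139 to 3635, 817 to 4045, 5 to 984 and 951 to 4882, and members from 3 to 6, 2 to 7, 0 to 0 and 4 to 7. Shh, Ptch1 and Hhip stayed called in MYF minus INM in all 8 of these, Gli1 was lost without INM replicate 1 or 2, and Gli3 without any MYF or INM array. In SMC minus MYF, Ptch1 and Gli1 stayed called in all 8, Shh was lost without SMC replicate 3 or MYF replicate 1 or 2, Hhip was kept without SMC replicate 2 or MYF replicate 2 only, and Gli3 without SMC replicate 2 or INM replicate 2 or 3 only. These fits assume that a group left with 1 array varies like the others.

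Other settings moved counts as follows, with genes first and members after, on all 9 arrays unless the setting leaves arrays out. In MYF minus INM they were 3635 and 6 with the compared groups alone (with or without SMC replicate 1), 451 and 3 with the mean of all probes, 4538 and 7 with array weights, and 441 genes with the probe of largest interquartile range. Members went to 0 with a variance trend and with every feature its own unit. In SMC minus MYF they were 0 and 0 with the compared groups alone and 1409 and 6 with array weights. With the compared groups alone and SMC replicate 1 left out they were 626 and 1, against 1990 and 5 with the INM arrays kept. The probe of largest interquartile range gave 355 genes. With every feature its own unit, 264 features (not genes) and 0 members were called. Members went to 0 with the mean of all probes and with a variance trend. In SMC minus INM, genes called were 3 with the probe of largest interquartile range and 29 with array weights. In the F-test they were 313 and 1 with the mean of all probes, 381 genes with the probe of largest interquartile range, and 3915 and 7 with array weights. A variance trend with SMC replicate 1 left out gave 3316, 2971, 117 and 3457 genes and 6, 6, 0 and 6 members. The cause of these shifts was not tested.

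A replicate block gave 0 and 0 in MYF minus INM, 1 and 0 in SMC minus MYF, and 0 genes in the F-test on 9 arrays; with SMC replicate 1 left out the block gave 1577 and 4, 767 and 2, and 1233 and 4. The labels do not say what a replicate number shares. Same-numbered MYF and INM arrays did not deviate together from their group means (correlations of deviations -0.0132, 0.0173 and 0.0172). Pairs with an SMC array cannot show this either way, because SMC replicate 1 enters the SMC mean and so shapes every SMC deviation. Over all 9 pairs the correlations ran from -0.0626 to 0.0818. Centring each array over all features moved no array's median by more than 0.000124 and a further quantile normalization by 5.59e-07, and neither changed a count by over 1.5 times. Centring over the genes' own features, added after the data were seen, moved an array by up to 0.389 and took members called to 0 in MYF minus INM and to 0 in SMC minus MYF. Gli1 in SMC minus MYF turned to 0.92 on its dimmer feature with all 9 arrays. Gli2 had no value where genes below the median level were left out.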
